A study of Mus musculus with 48 samples.

Results

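The genes examined were 10 members of the calcium/calmodulin-dependent kinase family, taken by gene symbol from the 55357 genes of the count table: the kinase kinases Camkk1 and Camkk2, the CaMKI genes Camk1, Camk1d and Camk1g, the CaMKIV gene Camk4, and the 4 CaMKII genes Camk2a, Camk2b, Camk2d and Camk2g. All 10 passed the filter on low counts, which left 21390 genes for testing. RNA was sequenced from the dorsal dentate gyrus, hilus included, of 24 wild-type C57BL/6J mice of both sexes, given as 6 to 8 weeks old in the sample records, while the study's methods give an older range. Kainate, a glutamate receptor agonist that induces status epilepticus, or saline was injected into the hippocampus of one side. The injected side is the epileptogenic zone (EZ) and the opposite side is the peri-ictal zone (PIZ). Tissue was taken 3, 7 or 14 days after injection, with 4 mice for each treatment and day. Each mouse gave 1 EZ and 1 PIZ library, so the 48 libraries formed 12 groups of 4. The labels do not give the sex of each library.

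Calcium entering a neuron binds calmodulin, and calcium-bound calmodulin activates these kinases. CaMKI and CaMKIV also need phosphorylation by a kinase kinase, CaMKK1 or CaMKK2, for full activity, whereas CaMKII assembles into large holoenzymes and can keep itself active by autophosphorylation. CaMKII is known for its part in long-term potentiation at excitatory synapses, CaMKIV for phosphorylating the transcription factor CREB in the nucleus, and CaMKK2 also for activating the energy sensor AMPK. The comparisons asked how the RNA of each member differed between kainate and saline in each region and day, and how Camk1 and Camkk2 compared with the other 8 members.

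Library totals ran from 17762656 to 25712975 counts, with a median of 22108562.5. No 2 libraries held identical counts, and the highest correlation between any pair was 0.9967. Levels are given as CPM, counts scaled to a common library size with edgeR's TMM factors, and a gene was called when its Benjamini-Hochberg adjusted p from edgeR's quasi-likelihood test was under 0.01 and its change was over 1.5-fold. The sum of 6 granule cell markers lay between 391.7 and 986.6 CPM in the saline groups, so the labelled tissue expressed them. The lowest saline values were in PIZ, 391.7 CPM at day 14 (group median 871) and 449.6 CPM at day 3 (group median 772.3). In EZ kainate day 14, the library of mouse 27 stood apart from the other 3, with 1711 CPM over 8 microglia and macrophage markers against 335 to 429.1 CPM, and the counts of kinases and markers called in that group are given with and without it. In PIZ kainate day 7, mouse 21 had the lowest granule cell sum, 289.8 CPM against 609.4 to 659.5 CPM in the other 3, and the highest sum of 3 fibroblast and meningeal markers, 102.4 CPM against 23.88 to 31.52 CPM. The fibroblast and meningeal sum also reached 72.01 CPM in PIZ saline day 14 (group median 19.7) and 46.24 CPM in PIZ saline day 3 (group median 18.86). In bulk tissue, fewer cells of a type and less RNA per cell cannot be told apart.

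By GRCm39 coordinates, Camk1 is at chr6:113311071-113321106 and Camkk2 at chr5:122869233-122917739, both on the minus strand. The other CaMKI genes are Camk1d at chr2:5298268-5719375 and Camk1g at chr1:193028652-193052689, both on the minus strand. Camkk1 is at chr11:72909421-72933202 on the plus strand. Of the CaMKII genes, Camk2b is at chr11:5915791-6016362 (minus), Camk2d at chr3:126389945-126639982 (plus) and Camk2g at chr14:20784942-20844541 (minus). Of protein-coding genes, Ogg1 shares 984 exon bases with Camk1 and Ykt6 shares 1813 with Camk2b, each on the opposite strand. The counting was set to use strand.

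RefSeq promoter windows, here the 250 bases before a start listed by RefSeq, were given for 7 of the 10 members in 8 entries, with none for Camk2a, Camk2g or Camk4. Each was found once, letter for letter, in GRCm39. One window of Camk1d and part of that of Camk1g are shown because both of these CaMKI genes fell in EZ and because the bases printed lie outside annotated exons. Capitals mark CG dinucleotides, which number 22 in the Camk1d window shown and 1 in the Camk1g window, against a median of 6 over 32851 promoter windows. The second Camk1d window, not shown, held 5.
Camk1d, chr2:5719574-5719823, minus strand: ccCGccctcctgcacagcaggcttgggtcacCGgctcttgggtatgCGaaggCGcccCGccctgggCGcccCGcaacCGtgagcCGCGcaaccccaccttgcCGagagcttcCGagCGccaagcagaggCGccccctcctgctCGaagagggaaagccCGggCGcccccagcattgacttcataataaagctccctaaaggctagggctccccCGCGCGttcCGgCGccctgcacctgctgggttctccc
Camk1g, chr1:193052690-193052840, minus strand: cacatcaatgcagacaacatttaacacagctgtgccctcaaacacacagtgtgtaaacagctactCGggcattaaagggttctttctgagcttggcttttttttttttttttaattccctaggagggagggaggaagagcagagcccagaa
The 8 windows were searched on both strands for the cAMP response element TGACGTCA, which CREB binds, and for its half-site TGACG, which lies within it. None of the 8 held the full element, which 1.55% of all windows held. One half-site each was found in the windows of Camk1 and Camkk1, against 17.8% of all windows. The pattern GAGGAAGT, bound by the myeloid factor PU.1, was in none of the 8 and in 2.44% of all windows. By the gene coordinates above, 5 of the 8 windows lie wholly inside their gene. The first base of each of these, farthest before the listed start, lies in an annotated exon, and the later bases were not checked. The windows of Camk1 and Camk1g reach 27 and 151 bases beyond the start of their genes. The Camk1d window shown is the 1 that lies wholly before its gene. The CCAAT box was in the Camkk1 window at 2 places and in 33.8% of all windows.

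In saline tissue the family was led by the neuronal CaMKII genes. Over the 24 saline libraries, the median level per kilobase of exon was 506.4 CPM for Camk2a and 116 CPM for Camk2b. Camkk1 followed at 50.9 CPM per kilobase, Camk1d at 39.4, Camk2g at 20.3 and Camkk2 at 13.1. Camk1g at 3.59, Camk1 at 3.28, Camk4 at 2.18 and Camk2d at 1.01 CPM per kilobase were the lowest. The saline range of Camk2a, 384.5 to 539.2 CPM per kilobase, lay above that of Camk2b, 75.2 to 133.4. The saline ranges of Camkk1 and Camk1d overlapped, as did those of Camk1g, Camk1 and Camk4, while the other neighbours in this order did not overlap. Dividing by the longest transcript in place of the summed exons moved Camk1 above Camk1g and Camk2d above Camk4. Between EZ and PIZ of saline mice, edgeR called none of the 10 kinases on any day, none had an unadjusted p under 0.05, and DESeq2 and limma-voom called none. The share of all genes called was 0.0281% at day 3 and 0.00% at days 7 and 14. Between day 14 and day 3 of saline, none was called in either region, again with none under an unadjusted p of 0.05, none by DESeq2 or limma-voom and a background of 0.00%.

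Camk1, the CaMKI alpha gene, rose in EZ at days 3 and 7 and in PIZ at day 3. In EZ at day 3 its level was 58.56, 80.68, 62.4 and 48.49 CPM in the 4 kainate libraries and 24.53, 29.02, 25.62 and 29.65 CPM in the 4 saline libraries. The lowest kainate library was above the highest saline library, and the fold change was 2.30 (log2 1.201 ± 0.22 SE, adjusted p = 3.16e-05). At day 7 the EZ kainate libraries held 120.7, 40.9, 51.9 and 92.5 CPM against 23.9, 25.3, 25.5 and 28.2 CPM in saline. The groups were again apart, with a fold change of 2.98 (log2 1.57 ± 0.22 SE, adjusted p = 2.86e-07). At day 14 the kainate libraries held 26.75, 62.85, 24.59 and 29.01 CPM against 23.13, 27.06, 24.93 and 24.19 CPM, and the groups overlapped. The day 14 change of log2 0.53 ± 0.22 SE was not called (adjusted p = 0.17), and without mouse 27, which held the highest value, it was log2 0.11.

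On the uninjected side at day 3, Camk1 was at 48.6, 40.9, 39.5 and 36.3 CPM in kainate and 25.9, 20.9, 24.1 and 23.7 CPM in saline. The groups did not overlap, and the gene was called (fold change 1.75, log2 0.81 ± 0.22 SE, adjusted p = 0.0067). This call was close to the threshold, since leaving out any mouse except kainate mouse 44 ended it, with log2 values of 0.72 to 0.86 over the 8 omissions, and so did leaving out the filter on low counts (log2 0.78, adjusted p = 0.010). At day 7 the PIZ kainate libraries held 34.33, 29.95, 29.93 and 29.78 CPM against 20.7, 21.6, 24.9 and 25.2 CPM, a log2 difference of 0.43 ± 0.22 SE that was not called (adjusted p = 0.37). At day 14 the groups overlapped, at 24.8 to 30.5 CPM in kainate and 21.5 to 28.3 CPM in saline. The EZ effect of kainate exceeded the PIZ effect at day 7 by log2 1.15 ± 0.31 SE (adjusted p = 0.0073), and the call was lost without mouse 20, 21, 33, 34, 35 or 89 (log2 0.90 and adjusted p = 0.056 without mouse 21, the lowest of these), without the filter on low counts (log2 1.09) and when only the compared groups were fitted (log2 1.17). At day 3 the difference between regions was log2 0.40 ± 0.31 SE (adjusted p = 0.50).

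Camkk2, the kinase kinase that also activates AMPK, fell on both sides. In EZ at day 3 it was at 62.8, 63.1, 65.9 and 60.7 CPM in kainate and 150, 139, 144.7 and 146.1 CPM in saline. Every kainate library was below every saline library, and the fold change was 0.44 (log2 -1.199 ± 0.11 SE, adjusted p = 3.93e-10). On the PIZ side at day 3 the kainate libraries held 61.1, 81.1, 89.5 and 70.4 CPM against 137.5, 145, 136.2 and 158.5 CPM in saline. The groups were apart here too (log2 -0.93 ± 0.11 SE, adjusted p = 1.10e-07).

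At day 7, Camkk2 was at 82.7, 82.8, 96.7 and 96.4 CPM in EZ kainate and 167.1, 147.7, 153.5 and 155.6 CPM in EZ saline (log2 -0.80 ± 0.11 SE, adjusted p = 1.09e-07). On the PIZ side at day 7 it was at 93.75, 79.81, 98.95 and 113.5 CPM in kainate and 149.3, 148.4, 164.4 and 152.1 CPM in saline (log2 -0.67 ± 0.11 SE, adjusted p = 6.22e-04). The groups did not overlap in either region. At day 14 the EZ kainate libraries, at 138.1, 140, 133.5 and 123.8 CPM, still lay below the saline libraries at 153.3, 157.3, 164.9 and 153.3 CPM, but the log2 difference of -0.23 ± 0.11 SE was not called (adjusted p = 0.22). Mouse 27 did not stand apart for this gene, and without it the value was log2 -0.25. By day 14 the PIZ kainate libraries, at 88.1 to 141.9 CPM, overlapped saline at 127.6 to 164.4 CPM.

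The kainate effect on Camkk2 did not pass the test for a difference between EZ and PIZ. It was lower in EZ by log2 -0.27 ± 0.15 SE at day 3 (adjusted p = 0.34) and by -0.13 ± 0.15 SE at day 7 (adjusted p = 0.54). Its 4 calls, in EZ and PIZ at days 3 and 7, held under each alternative fit and with each mouse left out. An exact two-sided permutation test over the 8 libraries of a comparison gives p = 0.0286, the smallest that 4 against 4 libraries allow, wherever the groups do not overlap, so for Camk1 and Camkk2 at days 3 and 7 it adds nothing to the separation already given. Where they overlapped, at day 14, the exact p was 0.143 for Camk1 in EZ and 0.171 for Camkk2 in PIZ.

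**Figure D1:**
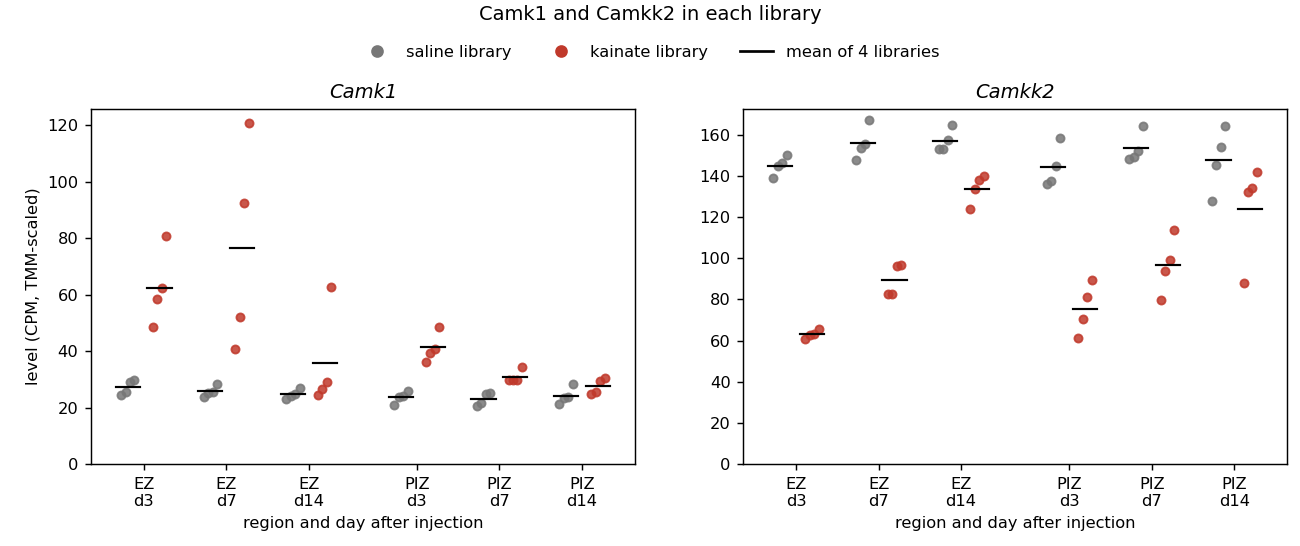
Level of Camk1 (left) and Camkk2 (right) in CPM on the y axis, for each library (points: grey saline, red kainate; bars: mean of 4 libraries) by region and day on the x axis. Camk1 in EZ kainate at day 7 spread from 40.9 to 120.7 CPM, above saline, whereas Camkk2 in EZ kainate at day 3 lay within 60.7 to 65.9 CPM, below saline at 139 to 150 CPM.

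At day 3 in EZ, kainate changed 8 of the 10 kinases, 1 higher and 7 lower. Among all genes tested, 24.7% were called, 16.1% higher and 8.61% lower. At day 7, 9 were called, 2 higher and 7 lower, against 32.5% of all genes, 20.6% higher and 11.9% lower. With only the 2 compared groups in the fit, 5 of the day 7 calls were made, without Camk2a, Camk2b, Camk2d and Camkk1 (log2 -1.17, -1.18, 0.68 and -1.37, adjusted p = 0.060, 0.059, 0.055 and 0.037). The median log2 fold change of the 10 kinases was -1.196 at day 3 and -1.17 at day 7, beside 0.03 and 0.01 over all genes. The 7 lower members were the same at both days: Camk1d, Camk1g, Camk4, Camkk1, Camkk2, Camk2a and Camk2b. At day 3, 1 kinase was wholly above saline and 7 wholly below, where 23.9% and 18.5% of all genes were so separated. At day 7 the numbers were again 1 and 7, beside 23.6% and 20.1%.

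The remaining CaMKI genes and Camk4 had the largest fitted decreases of the family in EZ at days 3 and 7. Camk1d was at 53.0, 57.9, 79.3 and 122.4 CPM in EZ kainate at day 3 and 348.8, 274.3, 284.1 and 296.7 CPM in saline. The 4 kainate values were all under the lowest saline value, with a fold change of 0.26 (log2 -1.95 ± 0.30 SE, adjusted p = 3.78e-06). At day 7 it was at 80.9, 128.2, 94.9 and 49.1 CPM against 254.9 to 372.4 CPM (log2 -1.87 ± 0.30 SE, adjusted p = 2.98e-06). Camk1g, the lowest CaMKI gene by reads, was at 4.24, 3.21, 3.91 and 4.46 CPM in EZ kainate at day 3 and 13.5, 11.61, 18.02 and 14.07 CPM in saline. It too was separated, and fell by 1.85 ± 0.26 (SE) on the log2 scale at day 3 and by 1.68 ± 0.26 (SE) at day 7 (adjusted p = 7.33e-07 and 1.29e-06). Its counts ran from 80 to 455 over the 48 libraries, the smallest of the family.

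Camk4 (chr18:33067984-33328821, plus strand) encodes the nuclear CaMKIV. It was at 5.77, 7.07, 10.6 and 6.22 CPM in EZ kainate at day 3 and 41.7, 22.9, 24.9 and 26.6 CPM in saline. The groups were apart, with a fold change of 0.26 (log2 -1.97 ± 0.31 SE, adjusted p = 4.95e-06), and at day 7 the log2 change was -1.86 ± 0.31 SE (adjusted p = 5.07e-06). Camkk1, the other kinase kinase, was at 114.3, 97.99, 136.2 and 177.5 CPM in kainate and 283, 285.3, 310.4 and 324.4 CPM in saline at day 3 (log2 -1.19 ± 0.31 SE, adjusted p = 0.0020). At day 7 the 4 EZ kainate libraries held 52.5, 207.6, 183.8 and 54.2 CPM of Camkk1, a 3.95-fold span, against 290.7 to 343.9 CPM in saline (log2 -1.37 ± 0.32 SE, adjusted p = 3.69e-04). The day 3 call was lost without kainate mouse 38 (log2 -1.07, adjusted p = 0.014).

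The CaMKII genes did not all move alike. Camk2a (chr18:61058473-61121224, plus strand), the most abundant member, was at 1147, 1280, 2063 and 2287 CPM in EZ kainate at day 3 and 4878, 4662, 4491 and 4874 CPM in saline (log2 -1.48 ± 0.27 SE, adjusted p = 3.23e-05). At day 7 its EZ kainate libraries held 1159, 3709, 2904 and 883.6 CPM against 4674 to 5044 CPM in saline (log2 -1.17 ± 0.27 SE, adjusted p = 3.51e-04). Camk2b fell as well, from 1452 to 1746 CPM in EZ saline at day 3 to 535.7 to 1007 CPM in kainate (log2 -1.05 ± 0.28 SE, adjusted p = 0.0023), and at day 7 by log2 -1.18 ± 0.28 SE (adjusted p = 5.28e-04). The day 3 call of Camk2b was lost without kainate mouse 38 (log2 -0.91, adjusted p = 0.018).

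Camk2g and Camk2d, the CaMKII genes expressed widely outside neurons, were not called lower by edgeR with all libraries. Camk2g was at 141.8, 119.3, 141 and 213.4 CPM in EZ kainate at day 3, overlapping saline at 176.2 to 199.2 CPM, and its log2 changes of -0.28 ± 0.14 SE at day 3 and -0.45 ± 0.14 SE at day 7 were under the fold threshold (adjusted p = 0.10 and 0.0074). Its day 7 decrease passed the threshold with limma-voom (log2 -0.67, adjusted p = 2.25e-04) and with edgeR without mouse 26 (log2 -0.59, adjusted p = 0.0011). Camk2d was at 29.6, 49.5, 35.8 and 31.5 CPM in EZ kainate at day 3 against 23.5 to 34.5 CPM in saline (log2 0.34 ± 0.17 SE, adjusted p = 0.097). At day 7 Camk2d was at 54.4, 23.6, 40.3 and 55.9 CPM against 22.7, 27.2, 25.9 and 32.6 CPM, and it was called higher (log2 0.69 ± 0.17 SE, adjusted p = 8.89e-04). One kainate library lay within the saline range, and the change dropped under 1.5-fold without mouse 21 (log2 0.56) or mouse 35 (log2 0.55).

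**Figure D2:**
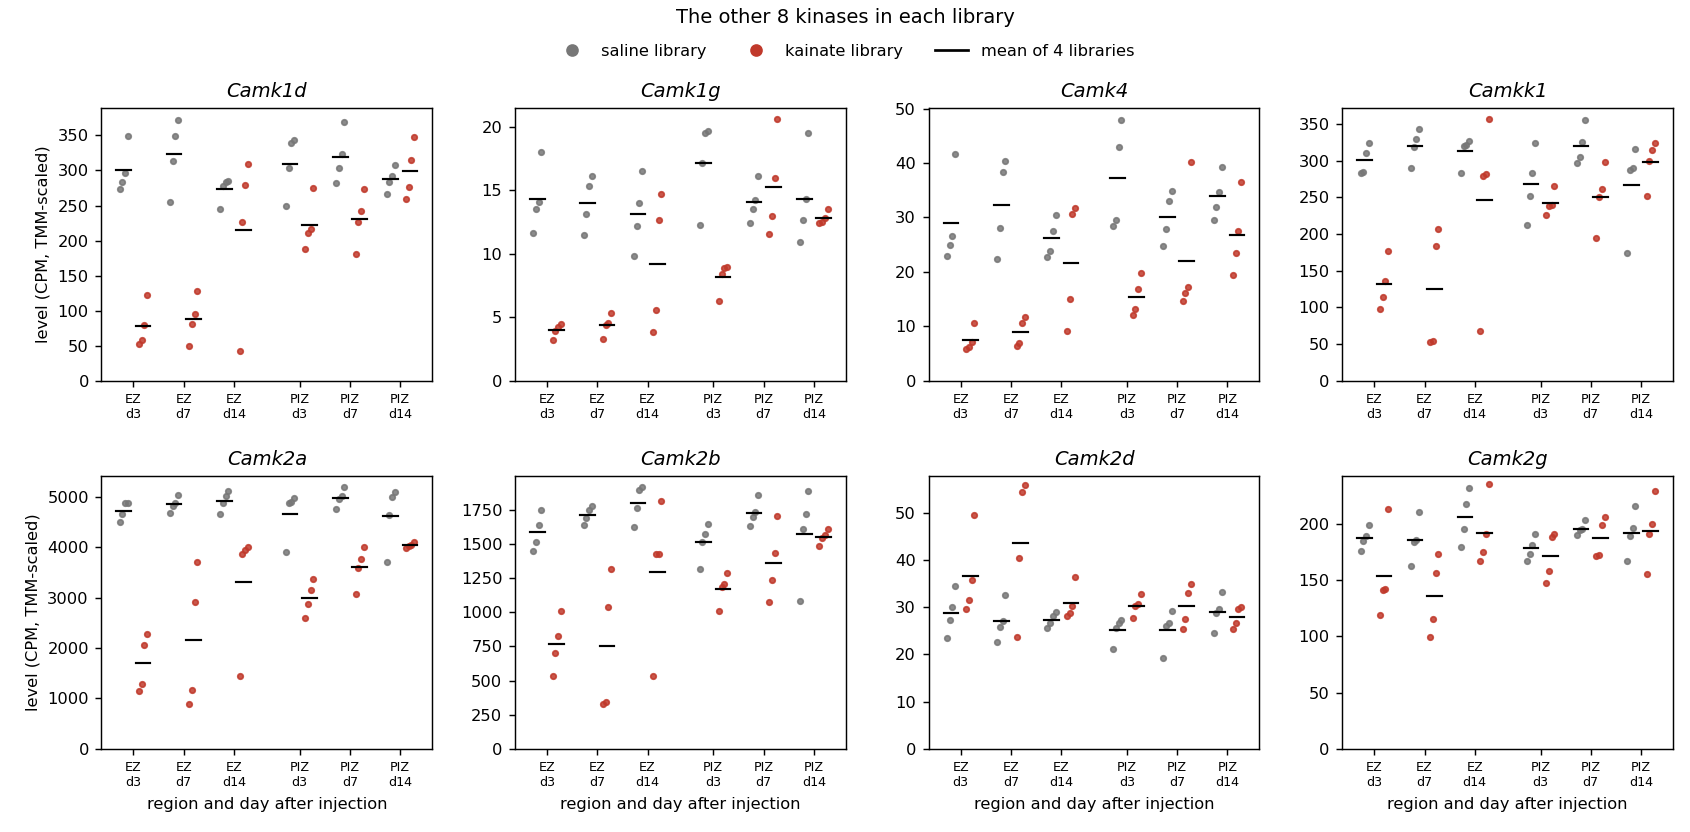
Level in CPM (y axis, from 0) of the other 8 kinases in each library, by region and day on the x axis (grey saline, red kainate, bars the mean of 4 libraries). Camk1d, Camk1g, Camk4, Camkk1, Camk2a and Camk2b were below saline in every EZ kainate library at days 3 and 7, whereas Camk2d and Camk2g overlapped saline.

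The makeup of the CaMKII RNA in EZ at day 3 was as follows. Per kilobase of exon, Camk2a made up 78.9% ± 0.677 (SD, n = 4) of the summed CaMKII level in EZ saline at day 3 and 70.7% ± 4.199 (SD, n = 4) in EZ kainate. The kainate libraries, at 64.6% to 74.4%, lay below the saline libraries, at 77.9% to 79.4%. The share of Camk2g was 3.22% ± 0.0516 (SD, n = 4) in saline and 6.81% ± 1.23 (SD, n = 4) in kainate, with kainate at 5.23% to 8.23% and saline at 3.15% to 3.28%. That of Camk2d was 0.174% ± 0.0311 (SD, n = 4) in saline and 0.607% ± 0.283 (SD, n = 4) in kainate, again without overlap. Camk2b was at 17.7% ± 0.681 (SD, n = 4) in saline and 21.9% ± 3.12 (SD, n = 4) in kainate. Each share is part of a fixed total, so it can rise while the level falls. From saline to kainate, mean Camk2g went from 187.4 to 153.9 CPM and Camk2b from 1590 to 767.4 CPM, with Camk2a from 4726 to 1694 CPM. The PIZ share of Camk2a at day 3 was 79.4% ± 0.814 (SD, n = 4) in saline and 75.4% ± 1.35 (SD, n = 4) in kainate. In EZ at day 7 the Camk2a share was again below saline in each kainate library (71.6% to 77.9% against 78.0% to 78.4%), but those of Camk2g (3.37% to 8.27% against 2.68% to 3.51%) and Camk2d (0.179% to 1.64% against 0.131% to 0.197%) overlapped. The Camk2b share, above saline in each EZ kainate library at day 3, was at 14.6% to 18.5% against 18.3% to 18.8% at day 7. By day 14 the Camk2a share overlapped too, at 72.6% to 77.5% in kainate and 76.6% to 78.4% in saline. These shares depend on the length used: as plain CPM, Camk2a was 72.4% of EZ saline and 63.3% of EZ kainate at day 3. The Camk2d share moved most in proportion, to 0.444% in saline and 1.504% in kainate as plain CPM and to 0.316% and 1.09% by the longest transcript, with kainate above saline each way. They are descriptions and were not tested.

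**Figure D3:**
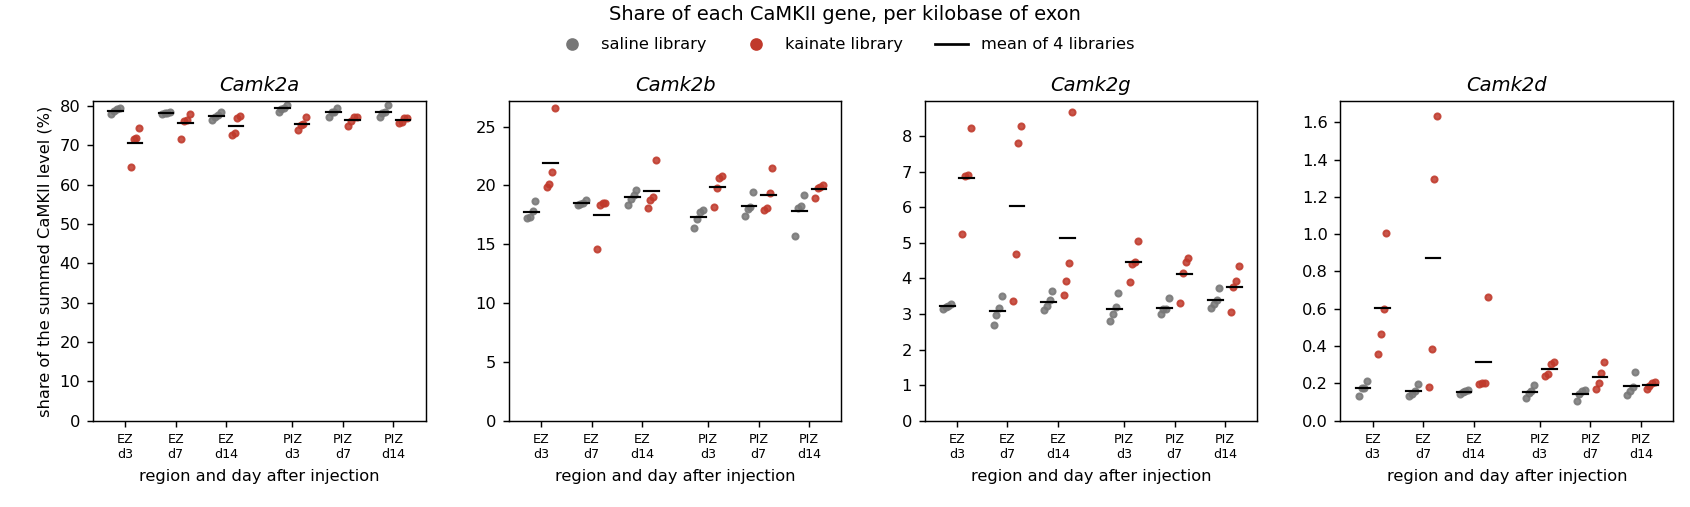
Share of each CaMKII gene in the summed CaMKII level per kilobase of exon (y axis, percent, from 0) in each library, by region and day on the x axis (grey saline, red kainate, bars the mean of 4 libraries). In EZ at day 3 the Camk2a share was 64.6% to 74.4% in kainate and 77.9% to 79.4% in saline, and the Camk2g share 5.23% to 8.23% and 3.15% to 3.28%.

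At day 14 in EZ, none of the 10 kinases was called by edgeR, DESeq2 or limma-voom, where 2.36% of all genes were, and 4 had an unadjusted p under 0.05. The count stayed at 0 without mouse 27, when the 10 log2 changes ran from -0.32 for Camk2a to 0.11 for Camk1, against -0.57 for Camk2a to 0.53 for Camk1 with it. Camk1d was at log2 -0.35 with that mouse and -0.0058 without it. None lay wholly above saline (4.58% of all genes) and 2, Camk2a and Camkk2, wholly below (3.42%). That mouse held 41.97 CPM of Camk1d against 226.9 to 309.8 CPM in the other 3 kainate libraries, and 1440 CPM of Camk2a against 3862 to 4000 CPM. It also held 67.3 CPM of Camkk1 against 278.6 to 356.5 CPM. Between days 7 and 14 the EZ kainate effect changed by log2 1.52 ± 0.42 SE for Camk1d, 1.58 ± 0.43 SE for Camk4, 0.57 ± 0.15 SE for Camkk2 and -1.04 ± 0.31 SE for Camk1. None of the 10 passed the threshold by edgeR for this difference (adjusted p = 0.020, 0.020, 0.018 and 0.025 for these 4), where 0.271% of all genes did. An unadjusted p under 0.05 was found for 7, DESeq2 called 2 and limma-voom called 8. Without mouse 27, edgeR called 5, without mouse 23 it called 3 and without mouse 26 it called 2. Between days 3 and 7 no kinase was called by edgeR in EZ (background 0.145%, 1 with an unadjusted p under 0.05), DESeq2 called none and limma-voom called 1.

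On the PIZ side at day 3, 4 kinases were called, Camk1 higher and Camk1g, Camk4 and Camkk2 lower, against 8.69% of all genes, 7.12% higher and 1.57% lower. The groups were apart for 2 higher members, Camk1 and Camk2d, and 5 lower ones, beside 17.1% and 13.6% of all genes. Camk1g was at 8.39, 8.96, 8.87 and 6.31 CPM in kainate and 19.6, 19.5, 12.3 and 17.2 CPM in saline, without overlap (log2 -1.08 ± 0.25 SE, adjusted p = 0.0016). It was lost without mouse 44 (log2 -0.97). Camk4 was at 12.03, 19.82, 16.78 and 13.18 CPM against 47.96, 28.45, 29.58 and 42.85 CPM, also apart (log2 -1.27 ± 0.30 SE, adjusted p = 0.0023). Its call was lost without any one of mice 18, 30, 41 and 44, with log2 values of -1.41 to -1.12 over the 8 omissions. Camk2a was at 2592, 3148, 3366 and 2872 CPM against 3898, 4971, 4897 and 4877 CPM, below saline in each library, but was not called (log2 -0.64 ± 0.27 SE, adjusted p = 0.077). It was called by limma-voom (adjusted p = 3.29e-04) and when only the compared groups were fitted (adjusted p = 0.0022). Camkk1 overlapped saline (log2 -0.15 ± 0.31 SE, adjusted p = 0.78), as did Camk2g (log2 -0.06 ± 0.14 SE, adjusted p = 0.82) and Camk1d (log2 -0.47 ± 0.29 SE, adjusted p = 0.25).

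At day 7, Camkk2 was the 1 kinase called in PIZ, where 0.201% of all genes were called, 0.150% higher and 0.0514% lower. One member, Camk1, lay wholly above saline (7.63% of all genes) and 3, Camk1d, Camk2a and Camkk2, wholly below (5.28%). At day 14 none was called in PIZ by edgeR, DESeq2 or limma-voom, against 0.0140% of all genes, and 1, Camkk2, had an unadjusted p under 0.05. No member was separated from saline then, beside 3.69% of all genes above and 3.48% below. The PIZ kainate effect changed between days for no kinase by edgeR, DESeq2 or limma-voom, with 1 unadjusted p under 0.05 from day 3 to day 7 (background 0.0234%) and 1 from day 7 to day 14 (background 0.00%).

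Compared directly, EZ and PIZ differed in their kainate effect for 2 kinases at day 7, where 9.89% of all genes differed, 7.00% upwards and 2.88% downwards. DESeq2 called 4 and limma-voom 7. The 2 were Camk1, more increased in EZ, and Camk1g, more decreased in EZ. Camk1g was at 4.58, 5.30, 4.36 and 3.32 CPM in EZ kainate at day 7 but at 20.6, 15.9, 12.9 and 11.5 CPM in PIZ kainate, where saline libraries held 12.4 to 16.2 CPM. The 20.6 CPM was in mouse 21, the library with the low granule cell and high fibroblast and meningeal sums, and their part in this value was not tested. The difference in effect was log2 -1.79 ± 0.35 SE (adjusted p = 0.0019), and it was -1.63 with an adjusted p of 0.025 without mouse 21. With the mouse as a block, Camk4 was called as well (log2 -1.29, adjusted p = 0.0079) beside -1.41 ± 0.43 SE (adjusted p = 0.015) without the block. DESeq2 called Camk4 too (log2 -1.42, adjusted p = 0.0063), and so did edgeR without mouse 23 or 26 (log2 -1.69 and -1.66), but without mouse 21, which held 40.16 CPM in PIZ against 14.7 to 17.27 CPM in the other 3, the difference was log2 -0.85 (adjusted p = 0.18). At day 3 no kinase was called for this difference by edgeR or DESeq2 (background 0.0655%, 4 with an unadjusted p under 0.05) and 2 were by limma-voom. At day 14 none was called by any of the 3 tools or had an unadjusted p under 0.05 (background 0.00%).

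Between the 2 sides of the same kainate mice at day 3, Camk1d was lower in EZ (log2 -1.51 ± 0.30 SE, adjusted p = 6.23e-04) and so was Camk1g (log2 -1.04 ± 0.26 SE, adjusted p = 0.0038). These were 2 of the 10, where 8.14% of all genes differed, 5.04% higher and 3.09% lower in EZ. Both calls were lost without mouse 38 (log2 -1.27 and -0.90) and when only these groups were fitted (log2 -1.54 and -1.07, adjusted p = 0.012 and 0.011), and that of Camk1g also without mouse 30 or 42 (log2 -1.06 and -0.99). With the mouse as a block, Camk4 was called as well (log2 -1.07, adjusted p = 0.0033), as it was by DESeq2 without a block (log2 -1.07, adjusted p = 0.0050). At day 7, 5 kinases differed, Camk1 higher and Camk1d, Camk1g, Camk4 and Camkk1 lower in EZ, against 27.9% of all genes. Fitting only these groups left 2, and limma-voom did not call Camk4. Without mouse 21 the calls of Camk4 and Camkk1 were lost (log2 -0.75 and -0.86), and that of Camkk1 also without mouse 35 (log2 -0.66). With the block Camk2a (log2 -0.97, adjusted p = 0.0038) and Camk2b (log2 -1.10, adjusted p = 0.0018) were called too. Without a block, limma-voom and edgeR without mouse 23 also called both, and DESeq2, scaling by library size alone, a minimum of 10 counts and edgeR without mouse 26 called Camk2b. Camkk2 was at 82.7 to 96.7 CPM in EZ and 79.8 to 113.5 CPM in PIZ at day 7, and the difference was not called (log2 -0.11 ± 0.11 SE, adjusted p = 0.41). At day 14 none differed by the 3 tools or at an unadjusted p under 0.05 (background 2.01%).

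**Figure D4:**
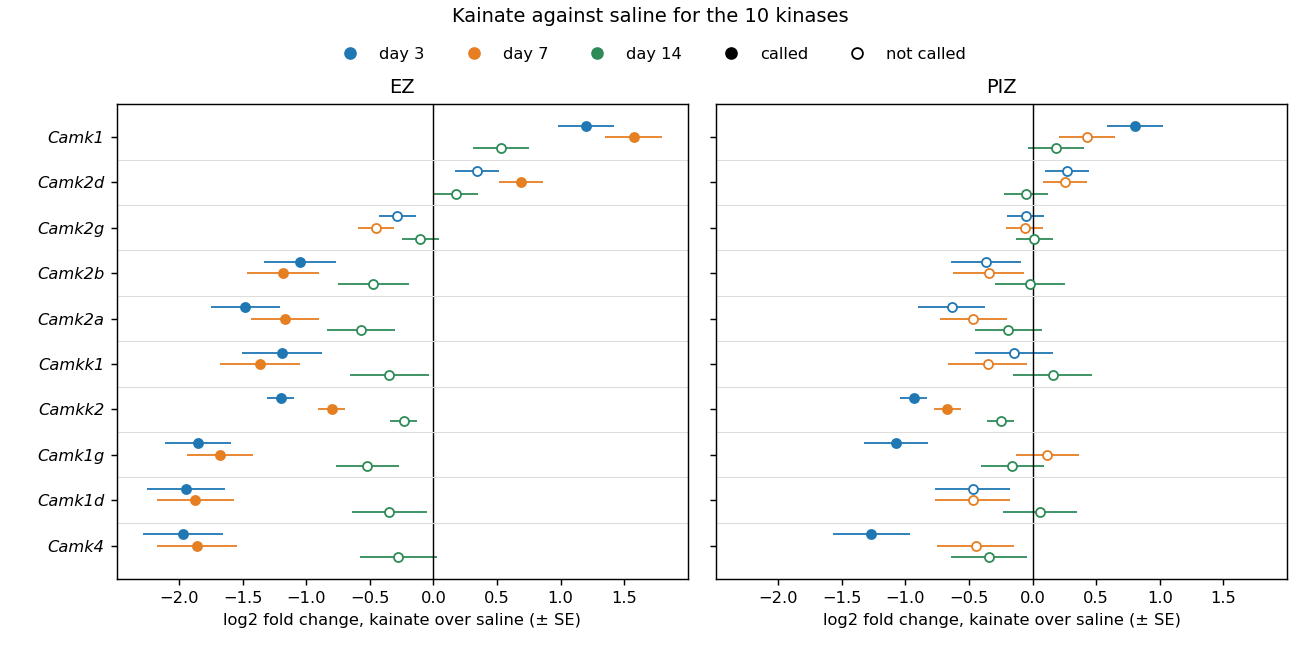
Log2 fold change of kainate over saline (x axis, bars ± SE) for the 10 kinases in EZ (left) and PIZ (right), coloured by day, with filled points called. Camk1 lies to the right of the other 9 in each comparison, from 1.57 in EZ at day 7 to 0.18 in PIZ at day 14, and Camkk2 has called decreases in both regions at days 3 and 7.

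Camk1 and Camkk2 were also set against the other 8 kinases. The log2 fold change of Camk1 was above those of all 8 others in each of the 6 kainate against saline comparisons. Camkk2 in EZ lay within their range, at -1.199 beside a median of -1.34 (range -1.97 to 0.34) at day 3 and -0.80 beside -1.27 (range -1.87 to 0.69) at day 7. For PIZ it was at -0.93 beside a median of -0.42 (range -1.27 to 0.27) at day 3. At day 7 in PIZ it was at -0.67, below the whole range of the other 8, -0.47 to 0.26. The spread of Camkk2 between EZ kainate libraries was also small, with a ratio of highest to lowest of 1.09 at day 3 and 1.17 at day 7. Camk1g came next at 1.39 and 1.6. Camk2a was at 1.99 and 4.2, the latter the widest of the family at day 7. On the PIZ side the ratio was 1.46 at day 3 and 1.42 at day 7 for Camkk2, beside 1.3 at both days for Camk2a. These are descriptions of genes chosen with earlier results known.

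Across the 12 group means of log2 CPM, the r of Camk1 was negative with Camk2a (Pearson r = -0.976) and positive with Camk2d (r = 0.948). The 6 members Camk1d, Camk1g, Camk2a, Camk2b, Camk4 and Camkk1 had pairwise r of 0.901 to 0.987, while the r of Camkk2 with these 6 was 0.723 to 0.881. The points share the kainate contrast and the libraries. Among 10868 other genes with a mean of at least 10 CPM, the patterns most like Camk1 were those of Shisa5 (r = 0.996), Sipa1 (r = 0.995) and Lrp10 (r = 0.995). Those most like Camkk2 were Gfra2 (r = 0.980), Tspan7 (r = 0.979) and Cxcl12 (r = 0.978).

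Cell type markers were counted in the same comparisons. Of 8 microglia and macrophage markers, 7 rose in EZ at day 3, 8 in EZ at day 7, 8 in PIZ at day 3 and 6 in EZ at day 14, and edgeR called none in PIZ at days 7 and 14, where 4 and 0 had an unadjusted p under 0.05. Without mouse 27, an omission added after seeing the data, edgeR called none of the 8 in EZ at day 14 and 3 had an unadjusted p under 0.05. Over all genes, 16.1% were called higher in EZ at day 3, 20.6% in EZ at day 7 and 7.12% in PIZ at day 3, and 2.36% in either direction in EZ at day 14. The microglia and macrophage sum was 846.6 to 1425 CPM in EZ kainate at day 3 and 362.3 to 622.5 CPM in saline, and 956 to 3500 CPM against 298.9 to 322.8 CPM at day 7. The PIZ sum at day 3 was 698.2 to 865 CPM in kainate and 209.1 to 295.2 CPM in saline. Between the saline sides at day 3, edgeR called none of the 8 markers, but 7 had an unadjusted p under 0.05. Their median log2 difference was 0.958, higher in EZ. Of the 6 astrocyte markers, 1 was called higher in saline EZ than in saline PIZ at day 3, where 0.0281% of all genes were called. Within EZ kainate at day 7 the order of the 4 mice was the same for this sum and for Camk1: mouse 21 highest (3500 and 120.7 CPM), then mouse 35 (2542 and 92.5 CPM), mouse 26 (1432 and 51.9 CPM) and mouse 23 (956 and 40.9 CPM). The endothelial sums of 242.6, 232.6, 157.4 and 111.5 CPM in mice 21, 35, 26 and 23 had this order too, as did the fibroblast and meningeal sums of 147.4, 113.5, 28.09 and 21.45 CPM. These libraries also spread widely for Camk2a, from 883.6 to 3709 CPM, and for the granule cell sum, from 134.8 to 802.4 CPM. No order is given here for the other groups in which Camk1 was called. Of 6 astrocyte markers, 3 rose and 1 fell in EZ at day 3, 4 rose in EZ at day 7, 2 in EZ at day 14 and 3 in PIZ at day 3. Without mouse 27 none of the 6 was called in EZ at day 14, and 2 had an unadjusted p under 0.05. Of 4 endothelial markers, 3 rose in EZ at days 3 and 7, as did all 3 fibroblast and meningeal and both precursor cell markers of oligodendrocytes. Of 5 oligodendrocyte markers, 1 rose in EZ at day 7, where 4 had an unadjusted p under 0.05, and edgeR called none in EZ at day 14, where 5 did, or 4 without mouse 27. Of 3 choroid plexus markers, 1 fell in EZ at days 3 and 7, Kl, named after its values were seen. No listed marker was at 0 in a whole group for microglia, neurons or astrocytes. The part of these cells in the Camk1 result was not tested.

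Of 5 general neuron markers, 3 fell in EZ at day 3 and 4 at day 7, and edgeR called none in PIZ, where 2, 1 and 0 had an unadjusted p under 0.05 at days 3, 7 and 14. The share of all genes called lower was 8.61% in EZ at day 3, 11.9% in EZ at day 7 and 1.57% in PIZ at day 3. The neuron marker sum was 1001 to 1972 CPM in EZ kainate at day 3 and 3031 to 4001 CPM in saline. The PIZ sum at day 3 was 2556 to 2982 CPM in kainate and 3090 to 4428 CPM in saline, and in PIZ at day 7 it was 2889 to 4190 CPM and 3486 to 4166 CPM. Camkk2 was called lower in PIZ at day 7 with the neuron sums of the 2 groups overlapping, but their granule cell sums did not overlap, at 289.8 to 659.5 CPM in kainate and 782.4 to 950.3 CPM in saline. The part of this in the Camkk2 result was not tested, and without mouse 21 the call held (log2 -0.66, adjusted p = 0.0022). Of 6 granule cell markers, 3 fell in EZ at day 3, 2 in EZ at day 7 and 2 in PIZ at day 3, with none called in PIZ at day 7, where 4 had an unadjusted p under 0.05 and their median log2 change was -1.05. The interneuron list had 3 of 5 lower in EZ at day 3 and 2 at day 7, and the pyramidal and mossy list 2 and 3 of 6, with 1 in PIZ at day 3. At day 14 in EZ none of these markers was called with or without mouse 27, and the number with an unadjusted p under 0.05 was 3 and 1 for granule cells and 1 and 0 for the pyramidal and mossy list. The part of cell numbers in the falls of the neuronal kinases was not tested.

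The surrounding pathway was described with 37 genes that regulate the kinases or are acted on by them, all of them tested. The same background shares of all genes as above apply. At day 3 in EZ, 17 fell and none rose, with a median log2 change of -0.43 over the 37 beside 0.03 over all genes, and without mouse 38 the count was 9. At day 7, 18 fell and 2 rose, with a median of -0.58 beside 0.01, and 5 were called when only the compared groups were fitted. For PIZ at day 3, 2 fell, Actn2 and Ppm1e. With any mouse left out, edgeR called 1, as did limma-voom with the mouse as a block. Without the block, limma-voom called 7, and an edgeR fit of only the compared groups called 5. In EZ at day 14 and in PIZ at days 7 and 14, none was called by edgeR or DESeq2, with 3, 7 and 2 at an unadjusted p under 0.05, and limma-voom called 2 in PIZ at day 7 and none in the others.

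Calm3 and Calm2 encode calmodulin, the activating calcium sensor. Calm3 changed by log2 -0.91 ± 0.17 SE at day 3 and -0.94 ± 0.17 SE at day 7 (adjusted p = 3.20e-05 and 1.05e-05). Calm2 was called at day 7 (log2 -0.74 ± 0.14 SE, adjusted p = 1.91e-05) and not at day 3 (log2 -0.36 ± 0.14 SE, adjusted p = 0.025). Camk2n1, which encodes an inhibitor protein of CaMKII, fell by 1.65 ± 0.32 (SE) on the log2 scale at day 3 and by 1.6 ± 0.32 (SE) at day 7 (adjusted p = 6.50e-05 and 5.67e-05). The second inhibitor gene, Camk2n2, was at log2 -0.43 ± 0.27 SE and -0.23 ± 0.27 SE and was not called (adjusted p = 0.19 and 0.48).

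Among family relatives, the pseudokinase gene Camkv changed by log2 -1.62 ± 0.30 SE at day 3 and -1.66 ± 0.30 SE at day 7 in EZ (adjusted p = 4.16e-05 and 1.71e-05). Pnck, a CaMKI relative, changed by -1.37 ± 0.35 SE and -1.56 ± 0.35 SE (adjusted p = 0.0014 and 2.87e-04), and the death-associated kinase gene Dapk1 fell on both days. Ppm1e, a phosphatase that acts on CaM kinases, fell in EZ at both days (log2 -0.81 ± 0.19 SE and -1.20 ± 0.19 SE, adjusted p = 4.45e-04 and 1.67e-06). Of the CaMKK2 target AMPK, the catalytic subunit gene Prkaa2 fell by 0.61 ± 0.15 (SE) on the log2 scale at day 3 and by 0.85 ± 0.15 (SE) at day 7 (adjusted p = 9.66e-04 and 1.17e-05).

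Among the listed partners and substrates of CaMKII, the NMDA receptor genes Grin2a and Grin2b changed by log2 -1.07 ± 0.29 SE and -0.96 ± 0.27 SE at day 3 (adjusted p = 0.0024 and 0.0039), and the AMPA receptor gene Gria1 by -1.23 ± 0.29 SE (adjusted p = 7.56e-04). Shank3, Syn1 and Actn2 were also lower at both days, and Actn2, which encodes an actin-binding partner of CaMKII, was lower in PIZ at day 3 by log2 -1.45 ± 0.28 SE (adjusted p = 2.33e-04). The calmodulin-binding Nrgn was lower at day 3 and Pcp4 at day 7. Of the transcription factors and cofactors, Mef2a and Crtc1 fell at both days, Creb1 was not called (log2 -0.17 ± 0.11 SE at day 3, adjusted p = 0.19), and Atf1 rose at day 7 (log2 0.80 ± 0.13 SE, adjusted p = 2.16e-06). Marcks, a calmodulin-binding protein gene, rose at day 7 by log2 1.07 ± 0.15 SE (adjusted p = 1.78e-07).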

How the data were processed

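Per the labels and the study's methods, the authors trimmed reads with fastp 0.20.1, aligned them to GRCm39 with HISAT2 2.2.1 and counted fragments per gene with featureCounts (Subread 1.6.4), using strand and GENCODE annotation. The deposited file holds raw counts for 48 libraries, 1 per region and mouse. Libraries were grouped by region, treatment and day. Symbols and exon lengths came from a later GENCODE release (98.90% of genes matched), so levels per kilobase are approximate. From the counts, edgeR 4.0.16 (R 4.3.3) fitted 12 group means after filterByExpr and TMM scaling, and 21 comparisons were tested with the quasi-likelihood test. SE is the log2 fold change divided by the square root of F. Log2 CPM used a prior count of 2. The script was tested on simulated data. Alternatives were DESeq2 1.42.0, limma-voom (limma 3.58.1), other filters, scalings and thresholds, the compared groups alone, each mouse left out, and the mouse as a block. That block was a fixed term in edgeR for comparisons between the sides, and a correlation in limma-voom for kainate against saline. The 2 libraries of a mouse share an animal, so replicate numbers pair them: residual correlations were 0.00806 to 0.716 (median 0.483) over 24 pairs. Each group's mice are separate animals. The 10 kinases are the named genes, and from the pathway list calmodulins, CaMKII inhibitors and genes called in EZ at days 3 or 7, with the 3 genes most like Camk1 and Camkk2 in pattern; one item of the rule is not reported here. Members and lists were chosen with earlier results of these data known.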

Additional observations from a re-analysis of the deposited data

Results flagged for a closer look

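Over 120 groups of 4 libraries, 6 held a library whose gap to its nearest neighbour was, as a part of the group's range, above Dixon's 95% critical value, and chance flags about 1 in 20 groups. In EZ kainate day 14, mouse 27 held 62.85 CPM of Camk1 against 24.59 to 29.01 CPM in the other 3 and 1440 CPM of Camk2a against 3862 to 4000 CPM. In PIZ kainate day 7, mouse 21 held 34.33 CPM of Camk1 against 29.78 to 29.95 CPM and 40.16 CPM of Camk4 against 14.7 to 17.27 CPM. In PIZ saline day 3, mouse 18 held 3898 CPM of Camk2a against 4877 to 4971 CPM. In EZ saline day 14, mouse 24 held 283.4 CPM of Camkk1 against 319.6 to 326.9 CPM.

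The kainate effect differed between EZ and PIZ at day 7 for Camk1, by log2 1.148 (adjusted p = 0.0073, edgeR), and for Camk1g, by log2 -1.792 (adjusted p = 0.0019). Camk1 was higher than every saline library of its side in 4 of 4 EZ and 4 of 4 PIZ kainate libraries, and Camk1g was lower in 4 of 4 EZ libraries while PIZ overlapped saline.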

How the results depend on the processing

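Scaling by RLE size factors and a minimum of 10 counts in every library left the number of kinases called in each comparison within 1.5 times. The Camkk2 calls in EZ and PIZ at days 3 and 7 kept their direction and side of the threshold under each alternative, with each mouse left out giving log2 -1.22 to -1.18 and -0.84 to -0.76 in EZ and -1.03 to -0.84 and -0.76 to -0.59 in PIZ. Scaling by library size alone moved the median of all genes by up to 0.127 on the log2 scale. With only the compared groups fitted, 5 kinases were called in EZ at day 7, 0 between the sides of kainate mice at day 3 and 2 at day 7. For the EZ minus PIZ effect, limma-voom called 2 at day 3 and 7 at day 7, where DESeq2 and an adjusted p under 0.05 called 4 and no count filter left 1. For the EZ change from day 3 to 7, limma-voom called 1, and for that from day 7 to 14 it called 8, DESeq2 2 and the looser threshold 4. Between the sides of kainate mice, limma-voom called 5 at day 3 and 8 at day 7, and the looser threshold 6 at day 3. The cause was not tested.

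Alternatives for the 37 pathway genes were added after seeing the data. With only the compared groups, 5 were called in EZ at day 7, 5 in PIZ at day 3 and 1 in PIZ at day 7. In PIZ at day 3, limma-voom called 7, an adjusted p under 0.05 called 4, and library size alone and no count filter 1 each. In PIZ at day 7, limma-voom called 2.

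With the mouse as a block for the paired libraries, Camk4 was called for EZ minus PIZ at day 7 (3 kinases in all) and between sides at day 3 (3), and Camk2a and Camk2b between sides at day 7 (7). For kainate against saline, the block was fitted in limma-voom, with a correlation of 0.163 between the 2 libraries of a mouse, so the tool changed too. There the pathway count in PIZ at day 3 was 1, and Camk2b in PIZ at day 14 turned to log2 0.009719. No other call changed among the 73 single-kinase results refitted with the block.

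Directions turned only for values that were not called. With limma-voom these were Camk1d and Camk4 in EZ at day 14 (0.01196 and 0.106), Camk1g in PIZ at days 7 and 14 (-0.06991 and 0.008556) and Camk2d in PIZ at day 14 (0.0199), and with library size alone Camk2g in PIZ at days 3 and 7 (0.03958 and 0.009118) and Camk2b in PIZ at day 14 (0.004451). Leaving out each mouse gave kinase counts of 2 to 3 in PIZ at day 3, 0 to 4 for EZ minus PIZ at day 7, 0 to 5 for the EZ change from day 7 to 14, 0 to 2 between sides at day 3 and 3 to 8 at day 7, and pathway counts of 9 to 16 in EZ at day 3 and 1 in PIZ at day 3. In PIZ these omissions gave Camk2g -0.1132 to 0.009538 at day 3, Camk1g -0.06253 to 0.2222 at day 7, and at day 14 Camk1d -0.02171 to 0.1215, Camk1g -0.2718 to 0.02465, Camk2b -0.1642 to 0.07734, Camk2d -0.1293 to 0.01734, Camk2g -0.07646 to 0.1055 and Camkk1 -0.002483 to 0.2476. Camk1g, with as few as 80 counts in a library, and Camk4, with as few as 148, had the shallowest counts.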
